A study of Mus musculus with 4 samples.

Results

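Interferon-stimulated genes are the genes that cells switch on when an interferon, a cytokine of the antiviral defence, reaches their surface. The set described here holds 32 of them: the transcription factors Stat2, Irf9, Irf7 and Irf1, the ISG15 pair Isg15 and Usp18, the RNA or nucleic acid sensors and partners Ddx58, Ifih1, Dhx58, Trim25 and Zbp1, the RNA-binding and OAS proteins Ifit1, Ifit2, Ifit3, Oas1a and Oasl2, the GTPases Gbp2, Gbp3, Gbp7, Irgm1, Iigp1 and Igtp, and the effectors Ifi27l2a, Bst2, Rsad2, Mx1, Ifi44, Ifi35, Rtp4, Xaf1, Parp14 and Samd9l. They were taken by symbol from a fixed list, and all 32 were among the 31017 gene symbols measured. All 32 also had at least 50 unique molecular identifiers (UMIs, the count of captured RNA molecules) over the study, as did 16622 symbols in all. The least counted were Mx1, with 72, 16, 8 and 1 UMIs after 2 and 7 days of culture and in mice of 9 and 14 days postpartum (dpp), and Oas1a, with 100, 14, 61 and 43.

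The study profiled single cells of mouse testis in 4 libraries, 1 per group. Per the labels, all mice were C57BL/6 carrying an Acr-Gfp transgene, so the in vivo and the cultured groups share it. The 2-day and 7-day culture groups came from testes taken at 7 dpp, cut in pieces and kept on agarose gel in α-MEM with AlbuMAX, a lipid-rich albumin, beneath a ceiling chip of PDMS, a silicone. The 9 dpp and 14 dpp groups were taken from the animal without culture, and their ages equal the age at explant plus the days of culture. The number of animals is not given in the sources used here, and the labels name female gonads where they describe how libraries were made. Each group is 1 library, so there is no error between replicates, no test was made, and culture cannot be told apart from library. Intervals cover counting error only.

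Type I interferons bind the receptor pair IFNAR1 and IFNAR2, and the kinases JAK1 and TYK2 then phosphorylate STAT proteins, STAT2 among them, which join IRF9 to form the complex ISGF3. ISGF3 binds a DNA element called ISRE in the promoters of interferon-stimulated genes, while interferon gamma acts through IFNGR1 and IFNGR2 and the GAS element. In the testis, Sertoli, Leydig, peritubular and macrophage cells are known to mount such responses, and germ cells are known for weak ones.

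The promoters are shown first because the ISRE is what many of these genes share on the DNA. Each line gives the 160 bases before the transcription start, 5′ to 3′ on the strand of the gene, from RefSeq on build GRCm38.p6, and capitals mark the ISRE core, which is TTTC and again TTTC with 2 bases of any kind between, or GAAA likewise on the other strand. Isg15, Ifit1, Ifit3, Rsad2, Bst2, Gbp7 and Igtp hold the core, overlapping in some, and Trim25 is shown as a member without it. The positions are chr4:156200819-156200978 for Isg15, chr19:34640729-34640888 for Ifit1, chr19:34583369-34583528 for Ifit3, chr12:26456453-26456612 for Rsad2, chr8:71537473-71537632 for Bst2, chr3:142530176-142530335 for Gbp7, chr11:58199396-58199555 for Igtp and chr11:88999243-88999402 for Trim25. Isg15, Rsad2 and Bst2 lie on the minus strand and the others on the plus strand.
Isg15: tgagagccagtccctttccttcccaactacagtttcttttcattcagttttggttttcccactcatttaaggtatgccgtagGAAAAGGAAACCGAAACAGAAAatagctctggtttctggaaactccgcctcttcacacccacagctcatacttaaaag
Ifit1: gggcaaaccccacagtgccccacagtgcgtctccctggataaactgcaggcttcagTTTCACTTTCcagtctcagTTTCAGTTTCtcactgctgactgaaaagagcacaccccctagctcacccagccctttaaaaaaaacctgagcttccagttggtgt
Ifit3: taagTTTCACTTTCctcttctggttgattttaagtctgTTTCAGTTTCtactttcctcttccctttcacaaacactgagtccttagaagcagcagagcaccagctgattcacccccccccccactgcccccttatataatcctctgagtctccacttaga
Rsad2: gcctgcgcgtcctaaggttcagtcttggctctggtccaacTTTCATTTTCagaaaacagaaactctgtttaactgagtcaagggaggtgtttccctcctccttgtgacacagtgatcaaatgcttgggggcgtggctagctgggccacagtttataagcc
Bst2: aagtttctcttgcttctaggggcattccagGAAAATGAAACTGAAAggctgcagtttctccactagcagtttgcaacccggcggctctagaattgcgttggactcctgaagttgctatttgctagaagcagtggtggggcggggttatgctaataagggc
Gbp7: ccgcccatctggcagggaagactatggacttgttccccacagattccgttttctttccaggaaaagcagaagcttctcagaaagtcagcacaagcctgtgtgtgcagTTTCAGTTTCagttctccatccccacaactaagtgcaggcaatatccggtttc
Igtp: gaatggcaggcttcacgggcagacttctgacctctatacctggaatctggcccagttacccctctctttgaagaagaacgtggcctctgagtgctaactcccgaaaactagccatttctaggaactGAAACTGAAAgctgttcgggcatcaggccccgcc
Trim25: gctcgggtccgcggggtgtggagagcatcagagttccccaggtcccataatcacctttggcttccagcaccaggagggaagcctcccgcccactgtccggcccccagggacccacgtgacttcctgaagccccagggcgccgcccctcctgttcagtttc

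The promoter table gave windows of 250 bases before to 50 after the start for 24 of the 32 genes. It was searched on both strands. Of these 24 genes, 14 (58.3%) held the ISRE core, against 3.99% of all 27025 genes in the table. They were Stat2, Isg15, Ddx58, Ifih1, Ifit1, Ifit3, Oas1a, Gbp2, Gbp3, Gbp7, Irgm1, Igtp, Bst2 and Rsad2. The GAS core TTCNNNGAA, which reads the same on both strands, was in 7 of 24 (29.2%) against 9.55%: Irf1, Ifit2, Oas1a, Gbp7, Igtp, Bst2 and Ifi35. Both cores can overlap one another. A match is a run of letters and not a shown binding site. Usp18, Dhx58, Zbp1, Iigp1, Ifi27l2a, Mx1, Rtp4 and Parp14 were not in the table. Within the annotation on GRCm38, Ifit2, Ifit3 and Ifit1 lie in one stretch of chromosome 19, from base 34550694 to base 34650009, and Gbp7, Gbp3 and Gbp2 in one of chromosome 3, from base 142530342 to base 142638008. Some members share 3′ end sequence with a close copy: of the 90-base windows near the annotated 3′ ends, 42.3% were shared by Oas1a with Oas1g, 6.57% by Ifit3 with Ifit3b and 0.45% by Gbp3 with Gbp7, so the counts of Oas1a and Ifit3 are uncertain to that extent.

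The libraries held between 34491701 and 60829941 UMIs in 5149 to 7710 deposited barcodes. After filtering, 6879 cells were kept from the 2-day culture, 4817 from 7 days of culture, 5146 at 9 dpp and 6219 at 14 dpp. Median depth was lowest in the 2-day culture, 3606 UMIs per kept cell, and highest at 9 dpp, 8542.5. Pairs of libraries shared 35 to 86 cell barcodes, at most 1.35% of a library.

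Summed over all kept cells, the 32 genes made up 1230.0 of every 1000000 UMIs (CPM, 95% Poisson interval 1218 to 1242) in the 2-day culture, 376 (370 to 382) after 7 days of culture, 271 (266 to 275) at 9 dpp and 242 (238 to 246) at 14 dpp. The 2-day culture thus stood above the other libraries, and 31 of 32 genes had their highest level there, Trim25 being the exception, where 21.3% of all genes had it there. Mx1 and Ifi44 reached 50 UMIs only through that library. Against 9 dpp (called the 2-day pair), 24 of 32 genes were at least 2-fold higher in the 2-day culture, on the scale of log2 (CPM + 1), where 4.2% of all genes were. None was at least 2-fold lower, where 3.41% of all genes were. With 10 added to CPM in place of 1, 15 were higher. The median log2 ratio was 1.77 over the 32 genes and -0.12 over all genes tested, and with TMM scaling, which trims extreme genes before it sets library factors, these became 1.90 and -0.01. Oas1a, at a log2 ratio of 0.999, lay just under the 2-fold mark, and Ifit2, at 1.05, just above it. Stromal- or myoid-like cells, described further on, were 35.6% of cells in the 2-day culture, 30.7% after 7 days of culture, 29.2% at 9 dpp and 17.9% at 14 dpp, so whole-library levels move with the mix of cells. With the shares of the cell classes held at their mean, 21 of the 24 genes stayed at least 2-fold higher.

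The 7-day culture was closer to its in vivo counterpart. Against 14 dpp (the 7-day pair), 6 of 32 genes were at least 2-fold higher, where 3.58% of all genes were, and none was at least 2-fold lower, where 2.65% were. These were Ifit3, Ifit1, Iigp1, Rsad2, Isg15 and Gbp2, with log2 ratios of 2.56, 2.21, 2.06, 1.81, 1.62 and 1.42. The count was 0 with 10 added to CPM in place of 1, and 11 with 0.1. The median was 0.48, and 26 of 32 genes were above 0. Between the cultures, all 32 genes were lower at 7 days than at 2 days, where 42.6% of all genes were, with a median of -1.47 against 0.07 over all genes. At least 2-fold lower were 20 of them, where 2.37% of all genes were, and none was at least 2-fold higher, where 4.51% were. In vivo, 1 of 32 genes, Iigp1 with a log2 ratio of 1.05, was at least 2-fold higher at 14 than at 9 dpp, where 4.08% of all genes were, and none was at least 2-fold lower, where 1.97% were. These comparisons share libraries with those before.

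**Figure D1:**
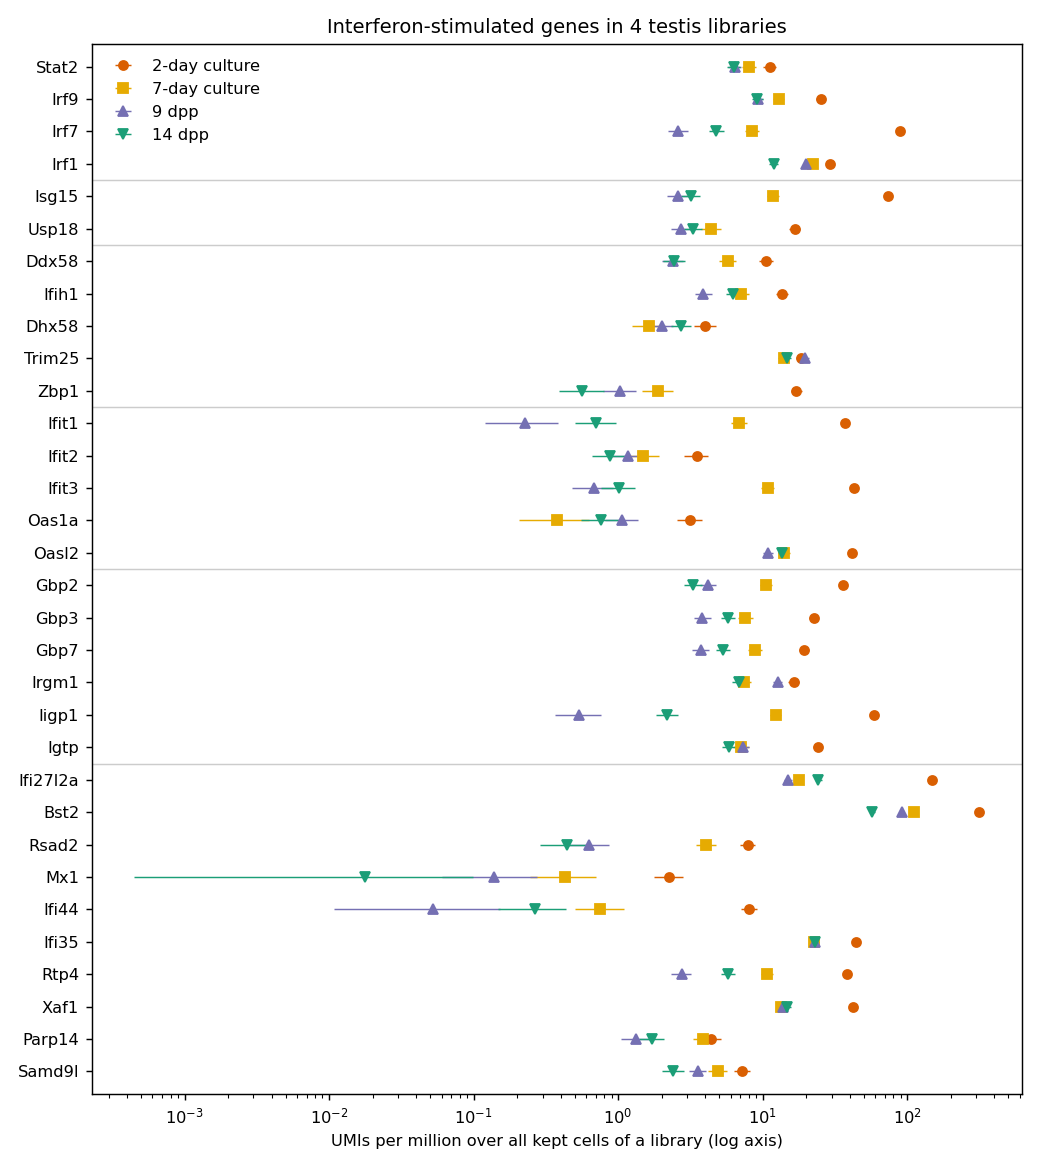
CPM of each of the 32 genes over all kept cells of a library, on a log axis, with 95% Poisson intervals as bars; genes are grouped by role and each marker is 1 library. The 2-day culture has the highest level for 31 of the 32 genes, and Trim25 sits close together in all 4 libraries.

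Among the transcription factors, Irf7, which amplifies interferon production and is itself induced, had the largest ratio in the 2-day pair. It had 88.7 CPM in the 2-day culture, 8.46 after 7 days of culture, 2.61 at 9 dpp and 4.79 at 14 dpp. The 2-day culture was 34.0-fold (28.8 to 40.3) above 9 dpp, and the 7-day culture 1.76-fold (1.50 to 2.08) above 14 dpp. Irf9, the DNA-binding part of ISGF3, had 25.2, 12.9, 9.30 and 9.18 CPM in the same order. Stat2, its partner, had 11.2, 8.05, 6.40 and 6.29 CPM. Both were highest at 2 days, then at 7 days, and alike in vivo. Irf1, a factor that interferon gamma induces strongly, had 29.2, 22.2, 20.03 and 11.9 CPM, so the 9 dpp library was nearer to the 7-day culture than to 14 dpp.

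Isg15, a ubiquitin-like protein that is attached to other proteins, had 73.6 CPM in the 2-day culture, 11.8 after 7 days of culture, 2.59 at 9 dpp and 3.18 at 14 dpp. This was 28.4-fold (24.1 to 33.8) above 9 dpp at 2 days and 3.72-fold (3.12 to 4.45) above 14 dpp at 7 days. Usp18, the protease that removes ISG15 and dampens receptor signalling, had 16.7, 4.39, 2.71 and 3.29 CPM. Both genes were at least 2-fold higher in the 2-day culture, and only Isg15 of the pair after 7 days of culture.

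Of the 5 sensors and partners, 3 were at least 2-fold higher in the 2-day pair, where 4.2% of all genes were, and none in the 7-day pair, where 3.58% were. Zbp1, a receptor for Z-form nucleic acid, had 17.1 CPM in the 2-day culture, 1.89 after 7 days of culture, 1.03 at 9 dpp and 0.566 at 14 dpp, a ratio of 16.7-fold (12.7 to 22.2) in the 2-day pair. Ddx58 and Ifih1, the RNA sensors RIG-I and MDA5, were 4.45-fold (3.64 to 5.47) and 3.50-fold (2.97 to 4.13) higher. Dhx58, the related LGP2, had 3.99, 1.64, 2.00 and 2.74 CPM and stayed under the 2-fold mark with a log2 ratio of 0.73. Trim25, a ubiquitin ligase that acts with RIG-I, had 18.5, 13.9, 19.7 and 14.7 CPM, with folds of 0.942 (0.851 to 1.04) and 0.946 (0.846 to 1.06). It was the one gene of the 32 with a log2 ratio below 0 in the 2-day pair, -0.08, which became 0.05 with TMM scaling, and its 7-day ratio of -0.07 became 0.07 with each cell weighted equally.

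The IFIT genes, whose products bind foreign RNA ends, differed among themselves in the size of the ratio. Ifit1 had 1189 UMIs (37.1 CPM) in the 2-day culture, 256 (6.89) after 7 days of culture, 13 (0.226) at 9 dpp and 40 (0.707) at 14 dpp. The folds were 164 (95.5 to 309) and 9.75 (6.97 to 14.0). Ifit3 had 42.7, 10.8, 0.678 and 1.01 CPM, with folds of 63.0 (45.8 to 89.0) and 10.7 (8.12 to 14.4). Ifit2, in the same stretch of the chromosome, had 3.49, 1.48, 1.17 and 0.884 CPM, with folds of 3.00 (2.20 to 4.12) and 1.68 (1.12 to 2.51). Oasl2, an OAS-like protein, had 41.2, 14.1, 11.0 and 13.7 CPM, so the 7-day culture did not stand apart from the in vivo libraries. Oas1a, an enzyme that makes the activator of RNase L, had 3.12, 0.377, 1.06 and 0.760 CPM.

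Of the GTPases, which attack the membranes around intracellular pathogens, Iigp1 had 59.0 CPM in the 2-day culture, 12.3 after 7 days of culture, 0.539 at 9 dpp and 2.19 at 14 dpp. Its fold of 109 (76.8 to 161) in the 2-day pair was followed by 5.60 (4.58 to 6.89) in the 7-day pair. Gbp2 had 36.0, 10.6, 4.17 and 3.31 CPM, and both cultures stood above both in vivo libraries. Gbp3, Gbp7 and Igtp were 5.91-, 5.16- and 3.32-fold higher at 2 days. Irgm1, a regulator of the other IRG GTPases, had 16.4, 7.38, 12.7 and 6.82 CPM and was the only GTPase under the 2-fold mark, with a log2 ratio of 0.35, which became -0.09 with the shares of the cell classes held at their mean.

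Among the other effectors, Bst2, the tetherin that holds virus particles at the cell surface, had 313 CPM in the 2-day culture, 112 after 7 days of culture, 91.3 at 9 dpp and 57.4 at 14 dpp. It gave 25.5% of all UMIs of the 32 genes in the 2-day culture and 33.7% at 9 dpp. Ifi27l2a, a small mitochondrial membrane protein, had 148, 17.7, 15.04 and 24.3 CPM, so it was 9.85-fold (9.16 to 10.6) higher at 2 days and 0.731-fold (0.665 to 0.802) of the in vivo level at 7 days. Rsad2, the antiviral enzyme viperin, had 7.86, 4.07, 0.626 and 0.442 CPM. Ifi44 had 259, 28, 3 and 15 UMIs, and Rtp4 had 1238, 397, 158 and 324. Xaf1, Ifi35, Parp14 and Samd9l had log2 ratios between 0.85 and 1.54 in the 2-day pair. In the 7-day pair, Xaf1, Ifi35 and Ifi27l2a were below 0, Ifi35 reaching 0.16 with a stricter cell filter and 0.03 with each cell weighted equally.

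To see which cells held these transcripts, cells were put into classes by the UMIs of marker genes, none of them among the 32 genes. Germ-like cells numbered 2897, 2572, 2528 and 3778 after 2 and 7 days of culture, at 9 dpp and at 14 dpp. The class of Sertoli-like cells, the somatic cells of the tubule, held 1161, 522, 860 and 855. Stromal- or myoid-like cells, which express collagens and decorin or smooth muscle genes, numbered 2450, 1480, 1503 and 1111. Leydig-like cells, the makers of androgens, numbered 82, 59, 81 and 106. Endothelial-, macrophage- and pericyte-like cells had fewer than 50 cells in at least 1 library, so they are given as levels only. Between 17 and 121 cells per library were below all marker limits, 50 to 246 carried markers of more than 1 class, and 49 to 182 lay near a limit.

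Stromal- or myoid-like cells gave 74.4% of the UMIs of the 32 genes in the 2-day culture and 48.9% after 7 days of culture, but 29.8% at 9 dpp and 18.6% at 14 dpp. Germ-like cells, in contrast, gave 41.6% at 9 dpp and 4.88% in the 2-day culture. The summed level in stromal- or myoid-like cells was 2762 CPM (2730 to 2794) in the 2-day culture, 1001 (978 to 1025) after 7 days of culture, 496 (482 to 510) at 9 dpp and 513 (493 to 533) at 14 dpp. In Sertoli-like cells it was 686, 367, 179 and 246 CPM, and in Leydig-like cells 1512, 852, 695 and 679. Germ-like cells went the other way as a whole, though not within every stage range described further on, with 158 CPM (151 to 165) and 107 (103 to 112) in the cultures against 213 (208 to 218) and 140 (136 to 144) in vivo.

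**Figure D2:**
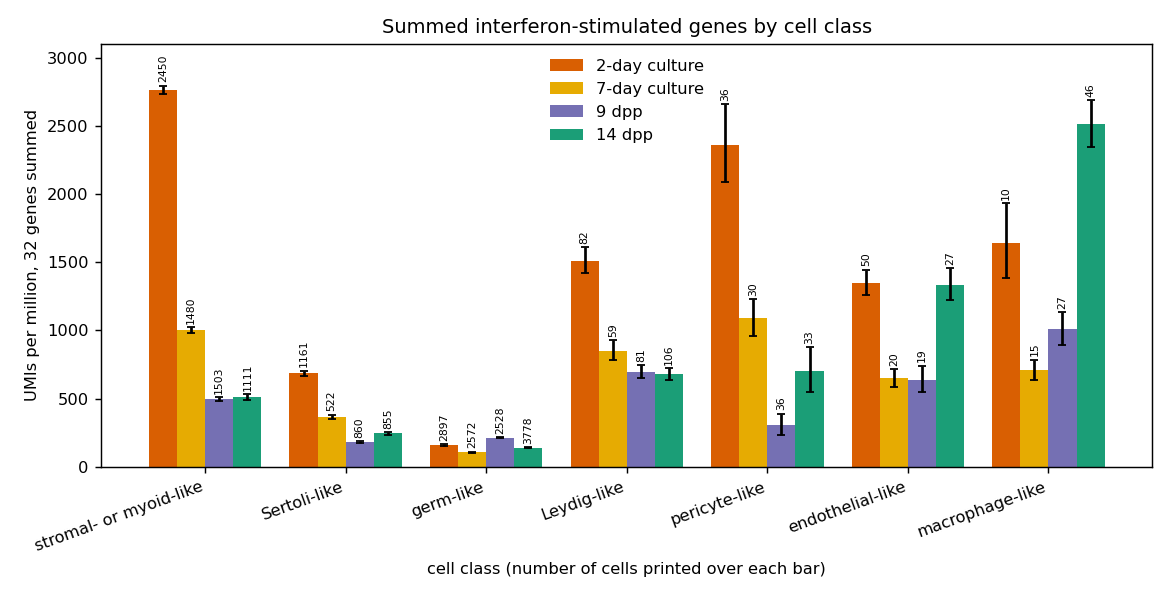
Summed CPM of the 32 genes in 7 cell classes and 4 libraries; bars start at 0, error bars are 95% Poisson intervals and the number of cells stands over each bar. Stromal- or myoid-like cells of the 2-day culture reach 2762, while germ-like cells stay between 107 and 213 in all 4 libraries.

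Within stromal- or myoid-like cells, all 32 genes passed the minimum of 50 UMIs, and 28 were at least 2-fold higher in the 2-day culture than at 9 dpp, where 5.81% of all genes were. None was at least 2-fold lower, where 7.27% were. Among the 28, Dhx58, Oas1a, Rsad2, Mx1 and Ifi44 passed the minimum only through the 2-day culture, where they are high. The median log2 ratio was 2.89, and all 32 genes were above 0. All 6 GTPases, both genes of the ISG15 pair, 9 of 10 other effectors, 4 of 5 sensors, 4 of 5 RNA-binding or OAS genes and 3 of 4 transcription factors were among the 28. Of 14 genes with the ISRE core in the promoter window 13 were at least 2-fold higher, of 10 without it 7 were, and all 8 genes not in the promoter table were. Their median log2 ratios were 3.04, 1.55 and 3.23. The 4 genes not among the 28, Stat2, Trim25, Ifit2 and Samd9l, had log2 ratios of 0.76, 0.81, 0.66 and 0.49.

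Of these genes, 5 were at 0 UMIs in the stromal- or myoid-like cells at 9 dpp. Zbp1 had 461 UMIs in the 2-day culture, 54 after 7 days of culture, 0 at 9 dpp and 1 at 14 dpp. With a floor of 3 UMIs set for the library at 0, the 2-day culture was at least 135-fold higher than 9 dpp. Rsad2 had 180, 25, 0 and 0 UMIs, so it was at least 52.9-fold higher in the 2-day pair and at least 6.07-fold higher in the 7-day pair. Ifi44 had 203, 22, 0 and 1 UMIs, and Mx1 had 67, 6, 0 and 0. Oas1a had 64, 2, 0 and 1. These 5 genes were near 0 in this class in both in vivo libraries.

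Others had UMIs in vivo and a higher level in culture. Isg15 had 184 CPM in the 2-day culture, 41.4 after 7 days of culture, 3.74 at 9 dpp and 6.24 at 14 dpp, with folds of 49.2 (35.3 to 70.8) and 6.63 (4.56 to 9.94). Iigp1 had 147, 54.1, 1.92 and 6.24 CPM, with folds of 76.4 (48.2 to 129) and 8.67 (6.00 to 12.9). Ifit1 had 93.7, 21.9, 0.641 and 2.01 CPM, with folds of 146 (67.0 to 400) and 10.9 (5.74 to 23.1). In all of these, both cultures lay above both in vivo libraries. Irf7 had 233, 33.7, 9.08 and 15.9 CPM, and Bst2 708, 309, 282 and 160. Ifi27l2a had 414, 65.1, 54.3 and 95.1 CPM, so the 7-day culture lay below 14 dpp. Ifi35 and Ifit2 were also below 0 in the 7-day pair here, with log2 ratios of -0.01 and -0.06.

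In the 7-day culture, 18 of 32 genes were at least 2-fold higher than at 14 dpp in stromal- or myoid-like cells, where 4.86% of all genes were. None was at least 2-fold lower, where 4.77% were, and the median was 1.16. With 10 added to CPM the count was 7. The 7-day culture was at least 2-fold below the 2-day culture for 20 of 32 genes, where 3.52% of all genes were, and at least 2-fold above it for none, where 3.35% were. Of the 32 genes, 4 were highest at 7 days: Irf1 had 34.1 and 36.4 CPM at 2 and 7 days, Parp14 9.13 and 9.83, Stat2 16.6 and 18.9, and Samd9l 14.4 and 15.7. For each of these 4 the intervals at 2 and 7 days overlapped. In vivo, 5 of 32 genes were at least 2-fold higher at 14 than at 9 dpp in this class, where 2.13% of all genes were, and none was lower, where 2.88% were. The 5 became 0 with 10 added to CPM and 10 with 0.1. The 3 largest of these differences were Rtp4, Parp14 and Ifih1, with log2 ratios of 1.57, 1.40 and 1.34.

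**Figure D3:**
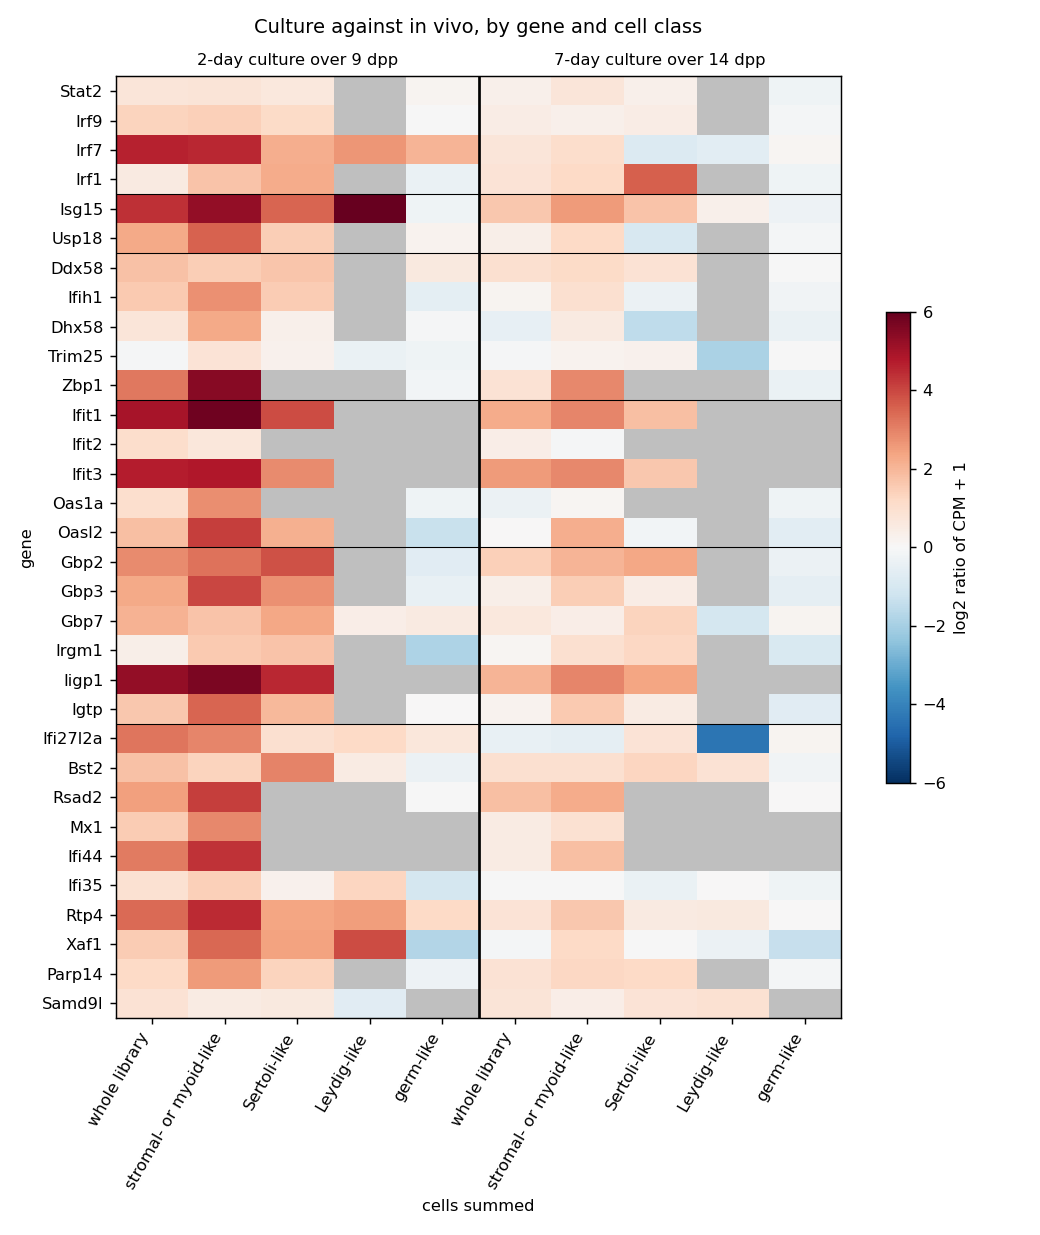
Log2 ratio of CPM + 1 for each gene, culture over the in vivo library of the same age, in the whole library and in 4 cell classes; red is higher in culture, blue is lower and grey is under 50 UMIs in that class. Stromal- or myoid-like cells are red for all 32 genes in the 2-day pair, and germ-like cells are blue for Irgm1, Xaf1, Oasl2 and Ifi35.

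In Sertoli-like cells, 26 of the 32 genes passed the minimum, and Zbp1, Ifit2, Oas1a, Rsad2, Mx1 and Ifi44 did not. A gene can pass through the library where it is high, so these counts describe the genes that passed, and Ifit1, Ifit3 and Iigp1 passed only through the 2-day culture. Of the 26, 20 were at least 2-fold higher in the 2-day culture, where 6.54% of all genes were, and 10 after 7 days of culture, where 9.76% were. None of the 26 was at least 2-fold lower in the 2-day culture, where 6.08% were. With 10 added to CPM, 13 and 2 were higher. Bst2 had 137 CPM in the 2-day culture, 59.8 after 7 days of culture, 16.6 at 9 dpp and 23.7 at 14 dpp, a fold of 8.30 (7.20 to 9.60) in the 2-day pair, against 2.51 (2.40 to 2.63) in stromal- or myoid-like cells. Irf1 had 34.5, 35.9, 6.65 and 2.12 CPM, so in these cells both cultures lay above both in vivo libraries, by 5.19-fold (4.09 to 6.64) and 16.9-fold (10.9 to 27.5).

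Several genes in Sertoli-like cells were higher at 14 than at 9 dpp. At least 2-fold higher were 7 of 26, where 4.82% of all genes were, and 1, Irf1, was lower, where 8.29% were. Xaf1 had 8.21 CPM at 9 dpp and 25.7 at 14 dpp, beside 25.6 in the 7-day culture. Oasl2 had 7.19, 19.1 and 17.1 in the same order, and Usp18 2.24, 7.52 and 3.32. For Xaf1 and Oasl2 the 7-day culture was close to 14 dpp, and for Usp18 it was nearer to 9 dpp. The summed macrophage markers, described further on, were 20.9 CPM at 9 dpp and 44.5 at 14 dpp in this class, beside 4.23 and 12.03 after 2 and 7 days of culture. The summed erythroid markers were 19.9 CPM at 9 dpp and 254 at 14 dpp, beside 136 and 1.27 in the cultures. The part of either list in these levels was not tested. Dhx58 was at least 2-fold lower in the 7-day culture than at 14 dpp, with 3 against 33 UMIs, a fold of 0.149 (0.0293 to 0.475), and it was the only gene lower there, where 7.41% of all genes were.

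Leydig-like cells were few, and 10 of 32 genes passed the minimum, Isg15, Rtp4 and Xaf1 only through their UMIs in the 2-day culture, where they are high, and Gbp7 and Ifi27l2a only through those at 14 dpp, where they are high. Of these, 6 were at least 2-fold higher in the 2-day culture, where 6.0% of all genes were, and none was at least 2-fold lower, where 11.0% were. After 7 days of culture none was at least 2-fold higher, where 6.93% were, while Trim25, Gbp7 and Ifi27l2a were at least 2-fold lower, 3 of 10, where 8.34% of all genes were. These counts rest on the minimum and the class limits: without the minimum, 22 genes were higher at 2 days and 7 at 7 days, and with Leiden clusters or each cell weighted equally 3 were higher at 7 days. Isg15 had 40 UMIs in the 2-day culture, 4 after 7 days of culture, 0 at 9 dpp and 8 at 14 dpp. Bst2 was high in all 4 libraries in these cells, with 699, 576, 489 and 315 CPM in that order. Ifi27l2a had 138 UMIs at 14 dpp and 2 in the 7-day culture, a fold of 0.0372 (0.00446 to 0.137).

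The smaller classes are given as summed levels. In pericyte-like cells the summed level was 2360 CPM (2086 to 2660) in the 2-day culture, 1089 (961 to 1229) after 7 days of culture, 306 (236 to 389) at 9 dpp and 699 (550 to 876) at 14 dpp, from 30 to 36 cells. This order, with the 2-day culture first and 9 dpp last, is close to that of stromal- or myoid-like cells. Macrophage-like cells were highest at 14 dpp, with 2510.0 CPM (2342 to 2686) from 46 cells, against 1639 (1381 to 1931) from 10 cells in the 2-day culture. Endothelial-like cells, from 19 to 50 cells, had 1349 CPM in the 2-day culture and 1335 at 14 dpp, against 649 and 640 after 7 days of culture and at 9 dpp. Macrophage-like cells held 6.10% of the UMIs of the 32 genes at 14 dpp and 0.362% in the 2-day culture.

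The levels of single cells were compared after each cell was thinned to 2000 UMIs, leaving out shallower cells, 37 to 277 per library in the stromal- or myoid-like class. In that class, 91.8% (exact binomial interval 90.6 to 92.9) of 2173 cells of the 2-day culture had at least 1 UMI of the 32 genes. The share was 77.2% (74.9 to 79.4) of 1386 cells after 7 days of culture, 57.4% (54.9 to 59.98) of 1466 at 9 dpp and 58.1% (55.0 to 61.2) of 1015 at 14 dpp. Without thinning the shares were 96.5, 90.5, 85.7 and 76.8%. Germ-like cells, which are no clean background because several of the genes have their own level there (described further on), had 22.6, 14.7, 26.1 and 17.9%, and their median depths before thinning were 4070, 6694, 11054 and 7055 UMIs against 3994, 4219, 5654.5 and 4259 in the stromal- or myoid-like class.

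The cells of the 2-day culture ranged widely. At 2000 UMIs, 14.5% of its stromal- or myoid-like cells held 10 or more UMIs of the 32 genes, and 8.19% held 0. After 7 days of culture 1.15% held 10 or more, at 9 dpp 0.0%, and at 14 dpp 0.0985%. The variance of the count was 7.63 times its mean in the 2-day culture and 4.22 times after 7 days of culture, against 1.44 at 9 dpp and 1.52 at 14 dpp. Since this ratio rises with the mean, the variance less the mean was also divided by the squared mean, which gave 1.21 in the 2-day culture, 1.71 after 7 days of culture, 0.446 at 9 dpp and 0.514 at 14 dpp. Both cultures lay above both in vivo libraries by either measure. The top 10% of cells held 37.9, 36.7, 37.8 and 37.7% of these UMIs in the same order, alike in all 4 libraries. The highest cell had 61 of its 2000 UMIs from these genes. Cells of the 2-day culture with an Isg15 UMI, 396 of them, had a mean of 10.7 UMIs of the other 31 genes, and the 1777 cells without had 3.93. For Ifit3 the means were 13.7 and 4.17. These means over the cells of 1 library describe that library alone.

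Sertoli-like cells had fewer UMIs of these genes per cell. The share with at least 1 UMI was 64.5% (60.9 to 68.0) in the 2-day culture, 47.1% (42.7 to 51.6) after 7 days of culture, 27.1% (24.1 to 30.2) at 9 dpp and 34.7% (31.4 to 38.2) at 14 dpp. As a measure of RNA from the stromal source, the 4 collagen and decorin genes were in Sertoli-like cells at 1.11 to 1.48% of their stromal level in the 2-day culture and at 0.115 to 0.523% in the other libraries. The 32 genes summed were at 24.8% (24.1 to 25.6) of theirs in the 2-day culture and at 36.1 to 48.0% in the others. The collagen and decorin genes are among the markers that set the classes, so the sorting can lower their level in Sertoli-like cells. Single genes of the 32 were not set beside this measure here. In the 2-day culture, 440 Sertoli-like cells were under 2000 UMIs and left out, and 721 remained. Cells with 10 or more UMIs were 1.53% of them.

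**Figure D4:**
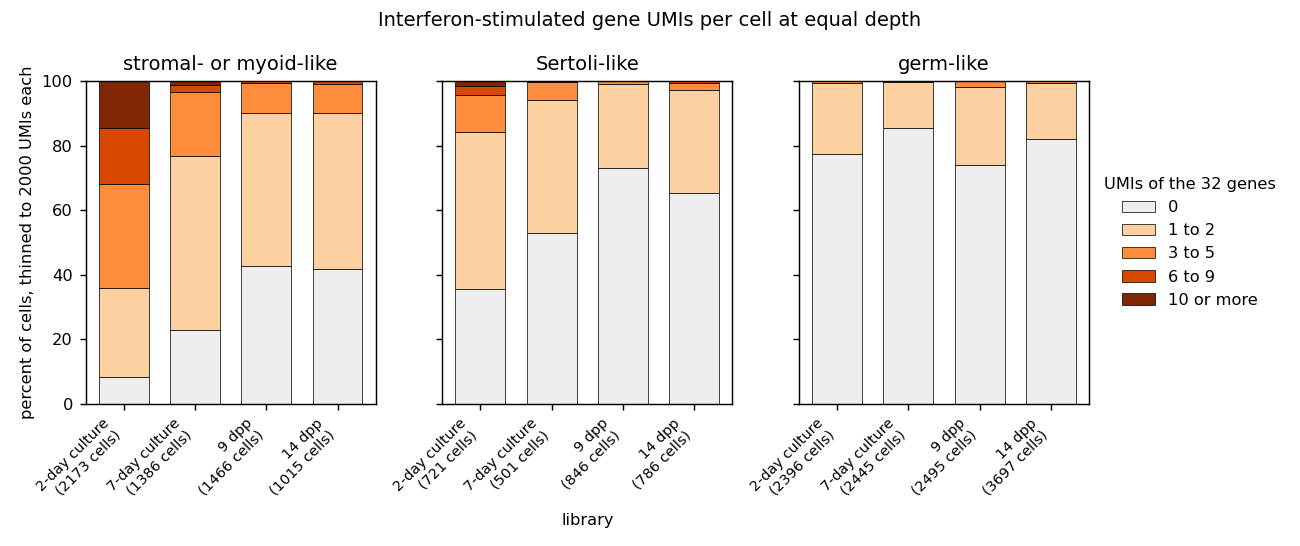
Share of cells by the number of UMIs of the 32 genes after thinning each cell to 2000 UMIs, for 3 classes and 4 libraries; each bar sums to 100%. In stromal- or myoid-like cells the 0 class shrinks to 8.19% in the 2-day culture and 14.5% reach 10 or more, while germ-like cells have 73.9% or more at 0 in every library.

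In germ-like cells few genes were higher in culture, and some were lower. Of 25 genes that passed the minimum, 2 were at least 2-fold higher in the 2-day culture than at 9 dpp, where 1.34% of all genes were, and 4 were at least 2-fold lower, where 3.06% were. With 10 added to CPM both counts were 0. In the 7-day culture none was higher, where 0.669% were, and 1 was lower, where 2.85% were. The median log2 ratio was -0.24 in both pairs. The higher genes were Irf7, with 39 UMIs in the 2-day culture, 7 after 7 days of culture, 1 at 9 dpp and 8 at 14 dpp, and Rtp4, with 29, 15, 15 and 24. Irf7 passed the minimum only through the 2-day culture, so its place in this count follows from the minimum. Highest at 9 dpp were 17 of the 25 genes, where 33.3% of all genes were, and lowest in the 7-day culture were 17, where 34.9% were. Of those highest at 9 dpp, Zbp1 and Rsad2 passed the minimum only through that library, so their place in this count follows from the minimum.

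The 4 lower genes were Irgm1, Xaf1, Oasl2 and Ifi35. Irgm1 had 4.10 CPM in the 2-day culture, 3.91 after 7 days of culture, 17.3 at 9 dpp and 8.38 at 14 dpp in germ-like cells. Xaf1, a factor linked to apoptosis, had 4.92, 3.28, 19.1 and 10.2 CPM. Both cultures lay below both in vivo libraries for each gene, with folds of 0.237 (0.174 to 0.318) for Irgm1 and 0.257 (0.194 to 0.335) for Xaf1 in the 2-day pair, and 0.466 (0.360 to 0.598) and 0.322 (0.245 to 0.418) in the 7-day pair. Oasl2 had 5.66, 8.16, 15.8 and 13.1 CPM, and Ifi35, a partner of other interferon-induced proteins, 4.02, 3.96, 9.28 and 4.85. In stromal- or myoid-like cells the same 4 genes were 2.72- to 22.0-fold higher in the 2-day culture than at 9 dpp.

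The mix of germ cell stages moves with this result. Germ-like cells were split by the UMIs of 5 meiotic genes, Sycp1, Sycp3, Hormad1, Tex101 and Smc1b, per 10000 UMIs, a split chosen after the data were seen. Cells under 15 were 52.5% of germ-like cells at 9 dpp and 22.3%, 20.6% and 26.7% after 2 and 7 days of culture and at 14 dpp. The summed level of the 32 genes was lower in cells with more meiotic UMIs in all 4 libraries: 264 CPM under 15, 142 from 15 to 60 and 60.6 at 60 or more at 9 dpp, and 209, 161 and 68.9 in the 2-day culture. So the 2-day culture was below 9 dpp under 15 only, and in the middle range it was above it, 161 (152 to 171) against 142 (135 to 150). In stromal- or myoid-like cells the sum was 2762 CPM in the 2-day culture and 496 at 9 dpp. The part of free RNA from those cells, described further on, in the middle-range difference was not tested. In the middle range the 7-day culture had 125 (117 to 134) and 14 dpp 124 (118 to 130). Under 15 they had 225 (212 to 239) and 236 (228 to 245), and at 60 or more 25.8 (22.5 to 29.4) and 38.4 (34.8 to 42.4). Irf1 had 40.4, 15.9 and 2.22 CPM across these ranges at 9 dpp and 34.9, 22.5 and 3.94 in the 2-day culture, with a fold of 0.863 (0.698 to 1.06) in the lowest range and 1.42 (1.13 to 1.78) in the middle one.

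Within the ranges, Xaf1 was lower in the 2-day culture than at 9 dpp in each of the 3, with folds of 0.322 (0.197 to 0.498), 0.282 (0.185 to 0.417) and 0.244 (0.0964 to 0.547). Irgm1 was lower in the lowest range, 0.189 (0.102 to 0.320), and had a fold of 0.859 (0.538 to 1.35) in the middle one. Oasl2 followed Irgm1, with 0.436 (0.289 to 0.636) and 0.765 (0.503 to 1.15), as did Ifi35, with 0.370 (0.199 to 0.634) and 0.951 (0.590 to 1.52). Other genes lay above 1 in the middle range of the 2-day pair, such as Stat2 with a fold of 2.16 (1.30 to 3.63) and Ifi27l2a with 5.14 (2.87 to 9.78). Ifi27l2a had 8.03 CPM in that range of the 2-day culture and 1.56 at 9 dpp. In stromal- or myoid-like cells it had 414 and 54.3 CPM, and the part of free RNA in its fold was not tested. In the 7-day pair the fold in the lowest range was 0.285 (0.175 to 0.443) for Xaf1, 0.369 (0.235 to 0.557) for Irgm1 and 0.956 (0.778 to 1.17) for Oasl2. Ifi35 was on the other side of 1 there, at 1.39 (0.973 to 1.96). In the middle range of that pair Xaf1 had 0.396 (0.242 to 0.625) and Irgm1 0.918 (0.608 to 1.37). At 60 or more Xaf1 had 0.512 (0.296 to 0.858), Irgm1 0.529 (0.261 to 1.02) and Ifi35 0.389 (0.161 to 0.848).

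**Figure D5:**
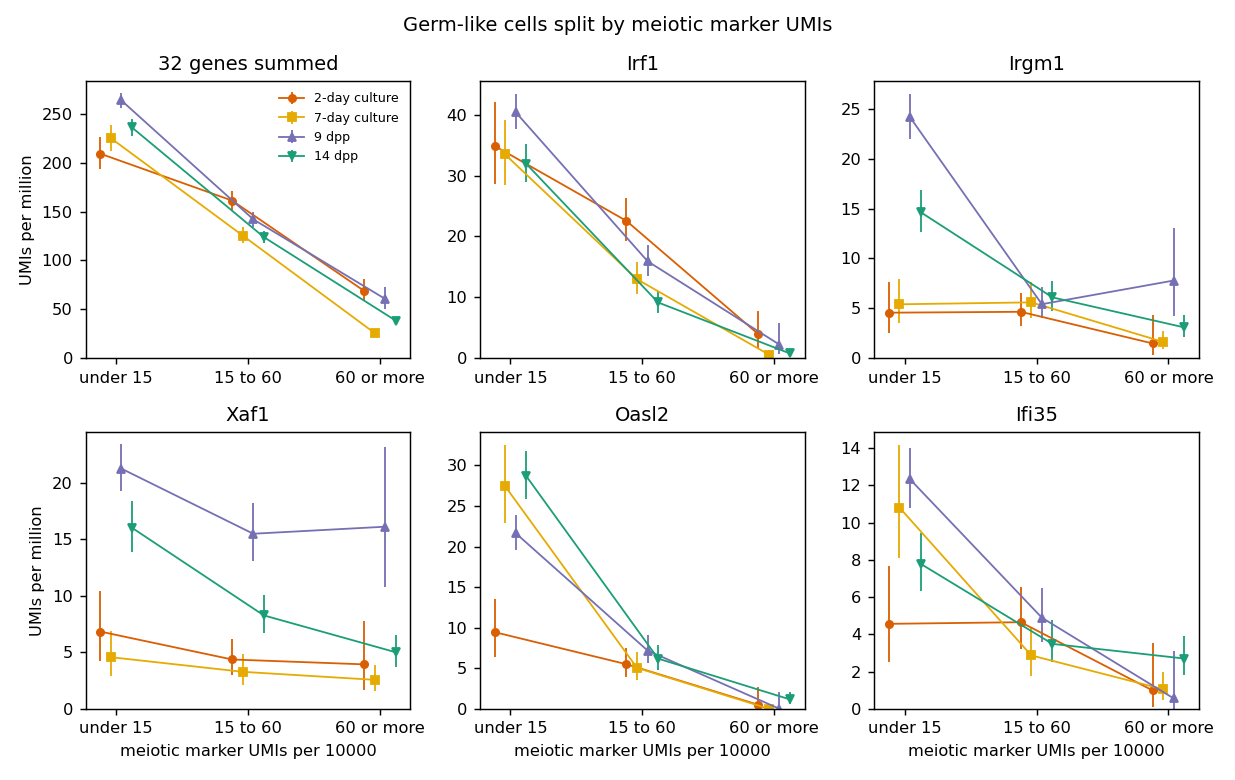
CPM in germ-like cells, split by meiotic marker UMIs per 10000, for the 32 genes summed and for 5 single genes; markers are libraries and bars are 95% Poisson intervals. The summed level is lower at each step in all 4 libraries, and Xaf1 in the cultures lies below the in vivo libraries in all 3 ranges of the 2-day pair.

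Free RNA from broken cells can put UMIs of one class into another. The collagen and decorin genes used here to measure it are among the markers that set the classes. The sorting can thus lower their level in germ-like cells. In the 2-day culture, the collagen genes Col1a1, Col1a2 and Col3a1 and the decorin gene Dcn were in germ-like cells at 0.696 to 1.19% of their level in stromal- or myoid-like cells, and the intervals of Dcn and Col3a1 at the ends of this range did not overlap. Iigp1 (0.838%), Isg15 (1.11%) and Ifit1 (1.14%) were in that range, and Irf7 (1.37%) and Ifit3 (1.42%) had intervals that reached it. The intervals of 23 of the 32 genes lay above it, where 93.0% of all genes with at least 10 stromal UMIs did, among them Bst2 at 5.04% (4.57 to 5.56), Igtp at 25.3% (20.4 to 31.3), Irf1 at 66.2% (56.4 to 77.6) and Trim25 at 138% (112 to 172). Irf7, counted above as higher in germ-like cells of the 2-day culture, had an interval that reached the range of the collagen genes, and Rtp4 was at 2.92% (1.94 to 4.22).

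At 9 dpp the order of the classes was different. The same collagen and decorin ratio was 0.262 to 0.770%, and of 24 genes with at least 10 UMIs in stromal- or myoid-like cells, 7 were higher in germ-like cells with an interval above 100%, where 46.4% of all genes with as many UMIs were. Oasl2 was at 400% (286 to 575) of the stromal level, Igtp at 384% (248 to 623), Xaf1 at 315% (239 to 421), Irf1 at 309% (250 to 388), Trim25 at 305% (237 to 397), Gbp3 at 265% (166 to 445) and Irgm1 at 176% (141 to 222). In the 2-day culture, Trim25 alone of the 32 had an interval above 100%, where 48.4% of all genes did, and Oasl2 was at 6.51% (5.02 to 8.32). Of the 32 genes, 26 had their highest level in stromal- or myoid-like cells among the 4 compared classes in each culture, where 17.7% of all genes did at 2 days and 19.6% at 7 days. At 9 dpp 8 did, where 19.1% of all genes did, and at 14 dpp 10, where 20.5% did.

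The genes around the response were read from lists. No interferon gene reached 50 UMIs. Ifnk had 4, 2, 7 and 10 UMIs, Ifnl3 0, 0, 3 and 7, and Ifng and Ifnz 1 each at 14 dpp, while the other 17 ligand genes, Ifnb1, Ifne and the alpha genes among them, had 0 in all 4 libraries. A count of 0 allows up to 3 UMIs in a library. For those genes no ligand RNA was detectable at this depth.

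Of 6 receptor genes, 1 was at least 2-fold higher in each pair, where 4.2% of all genes were at 2 days and 3.58% at 7 days. This was Ifnar2, with 45.02 CPM in the 2-day culture, 27.8 after 7 days of culture, 17.3 at 9 dpp and 12.9 at 14 dpp. Its level differed between classes: in the 2-day culture it was 97.5 CPM in stromal- or myoid-like cells, 35.1 in Sertoli-like cells and 1.80 in germ-like cells, and at 9 dpp 36.6, 32.4 and 1.81. Ifnar1 was 34.9, 26.2 and 35.4 CPM in the same classes of the 2-day culture, with no such gap. Ifngr2 was 125, 176 and 12.3 CPM.

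Among the JAK-STAT genes, Socs3, a feedback inhibitor, had 76.5 CPM in the 2-day culture, 45.4 after 7 days of culture, 11.4 at 9 dpp and 8.98 at 14 dpp. Both cultures lay above both in vivo libraries. Stat3, a signal transducer of many cytokines, had a log2 ratio of 1.29 in the 2-day pair, and Ptpn6 and Tyk2, at -0.79 and -0.44, stayed within 2-fold.

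Of 16 sensing genes that passed the minimum out of 19, 4 were at least 2-fold higher in the 2-day culture, where 4.2% of all genes were, and 2 after 7 days of culture, where 3.58% were. Tmem173, the adaptor STING, had 15.3, 3.93, 1.84 and 1.84 CPM, and Tlr2, a receptor for bacterial lipoproteins, 9.29, 6.17, 0.887 and 0.849. Myd88, the adaptor of most such receptors, and Irf8 were the others at 2 days, with log2 ratios of 1.18 and 1.02. Tlr3 was at 0.92. The 2 at 7 days were Tlr2, with a log2 ratio of 1.95, and the kinase gene Ikbke, with 1.17, while Tmem173 had 0.80.

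A further list held 60 interferon-stimulated genes outside the 32, of which 57 were in the files and 49 passed the minimum. At least 2-fold higher were 33 in the 2-day culture, where 4.2% of all genes were, and 18 after 7 days of culture, where 3.58% were, with medians of 1.55 and 0.54. None was 2-fold lower in either, where 3.41% and 2.65% of all genes were. The 5 with the largest 2-day ratios are named here. Cxcl10, a chemokine, had 56.6, 17.0, 0.696 and 1.01 CPM, Lgals3bp 127, 33.0, 3.93 and 7.99 CPM, and Ifitm3, which blocks virus entry, 1553, 354, 65.8 and 92.4. Psmb8, an immunoproteasome subunit, had 79.5, 33.3, 4.61 and 8.04 CPM, and Ifi47, another GTPase, 29.5, 7.81, 1.08 and 1.59. In all 5 the 2-day culture was highest and the 7-day culture next.

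Markers of other cell types were read beside these results. Of 10 macrophage markers, all were detected, and their summed level was 29.8 CPM in the 2-day culture, 312 after 7 days of culture, 185 at 9 dpp and 208 at 14 dpp, so it was lowest where the 32 genes were highest. In stromal- or myoid-like cells these markers were at 6.02, 5.72, 6.51 and 9.06 CPM, and in germ-like cells at 3.77, 5.55, 8.85 and 7.84. Of 4 plasmacytoid dendritic markers, Siglech had 0, 0, 1 and 3 UMIs and Ly6d 180, 1, 12 and 146, with a summed level of 8.54, 1.24, 1.95 and 3.27 CPM. The 11 lymphocyte markers summed to 2.91 to 6.26 CPM, with Cd3g and Nkg7 at 0 in the 2-day culture, and the 6 neutrophil markers to 3.24, 2.50, 1.36 and 0.990 CPM, with Retnlg at 0 in all 4. The plasmacytoid dendritic and neutrophil sums were highest in the 2-day culture, where the 32 genes were highest, but mostly through a few genes. Ly6d and Cox6a2 gave 180 and 91 of the plasmacytoid dendritic UMIs in that library, and Ccr9 gave 3. Camp had 83, 14, 13 and 18 UMIs, while Csf3r had 6, 6, 60 and 37 and S100a8 had 15, 70, 5 and 0. The 6 erythroid markers summed to 137, 0.727, 40.2 and 282 CPM. Their part in the results was not tested.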

How the data were processed

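The deposited files hold raw UMI counts per gene and cell barcode, made by the authors with Cell Ranger 3.0.2 on mm10, per the submitters' processing notes. Each of the 4 groups is 1 library. Cells under 500 detected genes or over 20% mitochondrial UMIs were left out, and barcodes called as doublets by Scrublet in scanpy 1.11.5 (92 to 251 per library) were removed. Counts were summed per library or class and given as CPM (counts per 1000000 UMIs) with exact Poisson 95% intervals. Ratios are log2 of CPM + 1, called past 2-fold over symbols with at least 50 UMIs in the 4 libraries. Folds are ratios of CPM with exact conditional binomial intervals, and a library at 0 was set to a floor of 3 counts. Classes were set by marker UMIs per 10000, with limits chosen after the data were seen. For the shares of cells, each cell was thinned to 2000 UMIs. Alternatives included TMM factors from edgeR 4.0.16, which was used for nothing else, and Leiden clusters. The ratio step was tested on simulated counts. Members of each list were named by role and by the size of their ratio, and the genes, lists and limits were chosen with earlier results of these data known. Some measured genes of the pathway lists are not reported here.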

Additional observations from a re-analysis of the deposited data

Results flagged for a closer look

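In some genes the cell classes lay more than 2-fold from 1 in opposite directions. Each class is 1 library per group, and the differences between classes were not tested. In the 2-day culture against 9 dpp, Oasl2 had a log2 ratio of -1.34 in germ-like cells, 2.11 in Sertoli-like and 4.15 in stromal- or myoid-like cells. Irgm1 had -1.84, 1.73 and 1.55 in the same classes. Ifi35 had -1.03 in germ-like, 1.41 in stromal- or myoid-like and 1.28 in Leydig-like cells. Xaf1 had -1.77 in germ-like, 2.42 in Sertoli-like, 3.45 in stromal- or myoid-like and 3.92 in Leydig-like cells. In the 7-day culture against 14 dpp, Xaf1 had -1.39 in germ-like and 1.20 in stromal- or myoid-like cells. Gbp7 had -1.08 in Leydig-like and 1.33 in Sertoli-like cells. Ifi27l2a in Leydig-like cells had 1.20 against 9 dpp at 2 days but -4.39 against 14 dpp at 7 days, where 2 UMIs stood against 138. In that class Xaf1 passed the minimum only through the 2-day culture, and Gbp7 and Ifi27l2a only through 14 dpp, where they are high. Their place here thus follows in part from the minimum.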

How the results depend on the processing

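Of the main counts and the stromal- or myoid-like shares recomputed, 131 values moved little and 39 moved. Of the other values, among them ratios of single genes, medians and shares in other classes, 1222 moved little and 238 moved. Single genes near 0 changed sign, as given beside Trim25, Irgm1 and Ifi35. In stromal- or myoid-like cells of the 7-day pair, Ifi35 became 0.02 with TMM factors and Oas1a -0.10 with each cell weighted equally. With 10 in place of 1 added to CPM, the genes at least 2-fold higher numbered 15 at 2 days and 0 at 7 days over the whole library. Stromal- or myoid-like cells then had 7 at 7 days, and Sertoli-like cells 13 at 2 days and 2 at 7 days. With 10, the genes lower at 7 than at 2 days numbered 12, those higher at 14 than at 9 dpp 0 both over the whole library and, again 0, in stromal- or myoid-like cells, while those past 2-fold in germ-like cells 0 higher and 0 lower at 2 days and 0 lower at 7 days. With 0.1, the 7-day pair had 11, 14 over 9 dpp 4 over the whole library and 10 in stromal- or myoid-like cells, germ-like cells 4 higher at 2 days and 3 lower at 7 days, and Leydig-like cells 1 at 7 days. The count for 14 over 9 dpp was 0 with all deposited barcodes, 0 with doublet calls kept and 2 with class shares fixed. Without a minimum of UMIs, germ-like cells had 4 higher at 2 days, and Leydig-like cells 22 at 2 days and 7 at 7 days. With Leiden clusters germ-like cells had 1 and Leydig-like cells 3 at 7 days, and the latter had 1 with the stricter cell filter and 3 with each cell weighted equally. TMM factors gave 26 higher genes in the 2-day pair. Of stromal- or myoid-like cells thinned to 1000 UMIs, 79.1, 53.9, 37.9 and 38.1% had a UMI of the 32 genes after 2 and 7 days of culture, at 9 dpp and at 14 dpp. Without thinning these were 96.5, 90.5, 85.7 and 76.8%, and with at least 3 UMIs 64.2, 23.2, 9.96 and 9.85%. The causes were not tested. No paired analysis was possible because each group is 1 library. Depth limits the statements on Mx1, Oas1a and the small cell classes.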
